A study of Mus musculus with 8 samples.

Results

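The 10 negative regulators of mitogen-activated protein kinase (MAPK) signaling, Dusp1, Dusp2, Dusp4, Dusp5, Dusp6, Dusp10, Spry1, Spry2, Spry4 and Spred1, were followed in bulk mRNA-seq of cultured mouse lung group 2 innate lymphoid cells (ILC2s). They were taken by gene symbol, and all 10 are among the 23183 genes listed in each of the 8 libraries. The cells came from C57BL/6 mice (C57BL/6 J in the study's methods), which were 6 to 10 weeks old, of both sexes and given recombinant IL-33, and were enriched with a pan-ILC kit and CD45 beads before culture in IL-2, IL-7 and IL-33 at 10 ng/mL each. Of the 8 libraries, 4 were from cells treated with 5 µM Yoda1, a chemical agonist of the mechanosensitive channel Piezo1, and 4 from cells given 0.1% DMSO as vehicle. The treatment lasted 3 h, so both groups share the wild-type background, the IL-33 given in vivo and the cytokines of the culture. The sources used here leave unsaid if the 4 libraries per treatment trace back to separate mice or to 1 pool of cells, so the p-values measure only the spread between these samples, which may be technical.

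Growth factor, cytokine and antigen receptors switch on Ras, which activates Raf, MEK and the ERK kinases, while stress and inflammatory inputs reach the related kinases JNK and p38. Active MAPKs are switched off when dual-specificity phosphatases (DUSPs) remove phosphate from their activation loop, and Sprouty and Spred proteins restrain the steps between receptor, Ras and Raf. Many of these genes are transcribed in response to the pathway they restrain and thus form a negative feedback loop, which in lymphocytes limits signals from antigen and cytokine receptors. All values below are mRNA levels, and neither the proteins nor MAPK phosphorylation were part of these libraries. In separate experiments the study reported that Yoda1 left ERK phosphorylation in ILC2s unchanged. How that bears on the mRNA levels below was not tested.

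Library totals ran from 13435521 to 18216729 counts with DMSO and from 12438009 to 19534653 with Yoda1, and 1 count was worth between 0.0514 and 0.0807 CPM, the unit used here for counts after TMM scaling of library sizes. Of 14 ILC2 markers, all were measured, among them Gata3 at 543 to 602 CPM and Il1rl1 at 1464 to 1739 CPM over the 8 libraries. The summed level was 18746 to 19268 CPM with DMSO and 21052 to 21449 CPM with Yoda1. Called higher were 7 markers (Il1rl1, Thy1, Ptprc, Il5, Il13, Arg1 and Areg), and 1 was called lower (Icos). Il13 alone was at 5234 to 5598 CPM with DMSO and 6554 to 6825 CPM with Yoda1. Gata3, Id2 and Rora were not called (log2 fold changes 0.0002, -0.023 and 0.034). T cell markers (7 of 8 listed in the files) summed to 70.5 to 78.1 CPM with DMSO and 76.0 to 86.1 CPM with Yoda1, mostly from Cd3g at 44.3 to 56.3 CPM over all libraries. Of the 5 NK cell or ILC1 markers, 3 were called higher (Tbx21, Eomes and Prf1), with sums of 431 to 488 and 497 to 525 CPM. Most of these sums came from Prf1, at 367 to 435 CPM over all libraries. Ncr1 and Klrb1c had log2 fold changes of -0.23 and -0.21 and were not called (edgeR adjusted p = 0.432 and 0.300). The defining B cell genes Ms4a1 and Pax5 and the myeloid genes Lyz2, Csf1r, S100a8 and S100a9 had at most 3 counts in any library. Other genes of these lists were measured and made up most of the sums below. Over all libraries Cd79b was at 5.17 to 6.97 CPM, Itgax at 5.95 to 7.83 CPM and Cd68 at 1.95 to 3.19 CPM. Summed levels were 5.32 to 7.07 and 5.54 to 7.20 CPM for the B cell list, 9.64 to 11.8 and 9.62 to 11.4 CPM for the macrophage or neutrophil list, 3.62 to 5.24 and 4.84 to 5.54 CPM for the mast cell or basophil list, and 213 to 227 and 218 to 223 CPM for the epithelial, endothelial or stromal list, nearly all of the last from Pecam1. The part of these marker shifts in the results was not tested, and in bulk RNA a change in the number of cells of a type cannot be told apart from a change in RNA per cell. Piezo1 itself stood at 310 ± 13.1 CPM with DMSO and 323 ± 17.6 CPM after Yoda1 (SD over 4 libraries per group), and its log2 fold change of 0.056 (SE 0.0399) was not called (edgeR adjusted p = 0.407).

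The DNA just upstream of several of these genes is shown as background, since many of them can be induced at transcription. Its part in which genes were called was not tested, and mRNA counts do not separate transcription from mRNA decay. RefSeq sequences (GRCm38.p6) were matched by symbol for 8 of the 10 genes. Each run below is the 250 bases before the transcription start given by RefSeq, 5′ to 3′ on the strand of the gene. All distances below count from that start. In GENCODE M21 the principal transcripts of Dusp1 and Dusp5 start inside these windows, at chr17:26508519 and chr19:53529109. Capitals mark matches, on either strand, to the cAMP response element (CRE, TGACGTCA), its core TGACG, the AP-1 site TGANTCA, the ETS site CCGGAA, the NFAT core GGAAA, the EGR site GCGNGGGCG and the CArG box bound by serum response factor. The CRE contains the core, and the other motifs were counted wherever they occurred. Dusp1 (chr17:26508473-26508722, minus strand), Dusp2 (chr2:127335909-127336158, plus strand) and Spry2 (chr14:105896820-105897069, minus strand) were called higher, whereas Dusp5 (chr19:53528895-53529144, plus strand) and Dusp6 (chr10:99262981-99263230, plus strand) were not called.
Dusp1: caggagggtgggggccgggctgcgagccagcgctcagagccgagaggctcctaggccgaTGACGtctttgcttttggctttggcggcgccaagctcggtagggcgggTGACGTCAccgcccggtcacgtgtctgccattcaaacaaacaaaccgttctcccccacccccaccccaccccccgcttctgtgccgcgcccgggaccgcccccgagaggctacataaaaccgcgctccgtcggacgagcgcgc
Dusp2: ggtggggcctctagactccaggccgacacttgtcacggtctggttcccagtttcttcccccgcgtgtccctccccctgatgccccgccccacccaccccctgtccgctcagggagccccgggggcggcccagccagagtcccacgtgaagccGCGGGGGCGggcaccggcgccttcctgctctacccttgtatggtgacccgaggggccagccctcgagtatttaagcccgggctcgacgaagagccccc
Spry2: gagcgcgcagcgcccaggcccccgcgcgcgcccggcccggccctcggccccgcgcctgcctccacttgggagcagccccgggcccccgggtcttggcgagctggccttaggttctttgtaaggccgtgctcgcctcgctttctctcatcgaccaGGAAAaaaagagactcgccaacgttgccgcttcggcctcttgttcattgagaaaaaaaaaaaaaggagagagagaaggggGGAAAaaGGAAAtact
Dusp5: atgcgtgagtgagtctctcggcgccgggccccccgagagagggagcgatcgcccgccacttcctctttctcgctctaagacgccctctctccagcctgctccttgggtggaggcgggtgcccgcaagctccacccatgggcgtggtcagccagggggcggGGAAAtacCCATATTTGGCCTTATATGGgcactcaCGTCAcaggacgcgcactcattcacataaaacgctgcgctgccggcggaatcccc
Dusp6: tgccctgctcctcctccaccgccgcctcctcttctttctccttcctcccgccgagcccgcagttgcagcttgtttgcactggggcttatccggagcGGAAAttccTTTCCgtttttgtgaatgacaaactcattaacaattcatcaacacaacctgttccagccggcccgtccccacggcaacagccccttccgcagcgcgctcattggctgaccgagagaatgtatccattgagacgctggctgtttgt
The Dusp1 window held a full CRE that begins 143 bases upstream of the start and a separate core at 191 bases, and a full CRE was in 1.55% of 32851 promoter windows of the same length. Dusp2 held an EGR site at 98 bases, a motif found in 4.70% of windows. The Dusp5 window held adjoining CArG boxes at 82 and 72 bases, and 1.47% of windows hold any. NFAT cores, present in 55.6% of all windows, occurred 3 times in Spry2, 2 times in Dusp6 and Spred1 and 1 time in Dusp5. Among the 8 genes searched, the core TGACG was in Dusp1 and Dusp5 (17.8% of windows), and no AP-1 or ETS match was found in these windows (6.75% and 12.0% of windows). The windows of Dusp10 and Spry1 held no match to any of the motifs. These are matches of letters only, in a short window, and say nothing about binding in these cells.

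After 3 h of Yoda1, 5 of the 10 feedback genes rose, Spry2, Dusp2, Dusp4, Dusp10 and Dusp1, by between 1.30-fold and 1.45-fold. None was called lower by edgeR at an adjusted p of 0.05, and DESeq2 and limma-voom also called 0 lower. Still, 2 (Dusp6 and Spry4) had a log2 fold change below 0 at an unadjusted p under 0.05 by edgeR. Of the 12239 genes that passed the filter on low counts, 10.9% were called in either direction, which splits into 6.04% higher and 4.84% lower in Yoda1. At an unadjusted p under 0.05 by edgeR, 1563 of these genes were higher and 1530 lower. With upper-quartile scaling the split of all called genes turned from 739 higher and 592 lower to 505 higher and 958 lower, and the feedback genes again gave 5 higher and 0 lower. All 10 genes passed the filter, with 70 to 6061 counts per library. Their median log2 fold change was 0.23 and their median absolute log2 fold change 0.33, beside -0.0053 and 0.085 over all genes tested. The members were chosen with earlier results of these data known, so these contrasts are a description and not a test of the group. The groups did not overlap for 6 of the 10 genes, 5 of them higher and 1 (Dusp6) lower with Yoda1, while 8.44% and 7.05% of all genes tested were separated in these directions. With 4 libraries against 4, the smallest p of the two-sided exact permutation test is 0.0286.

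**Figure D1:**
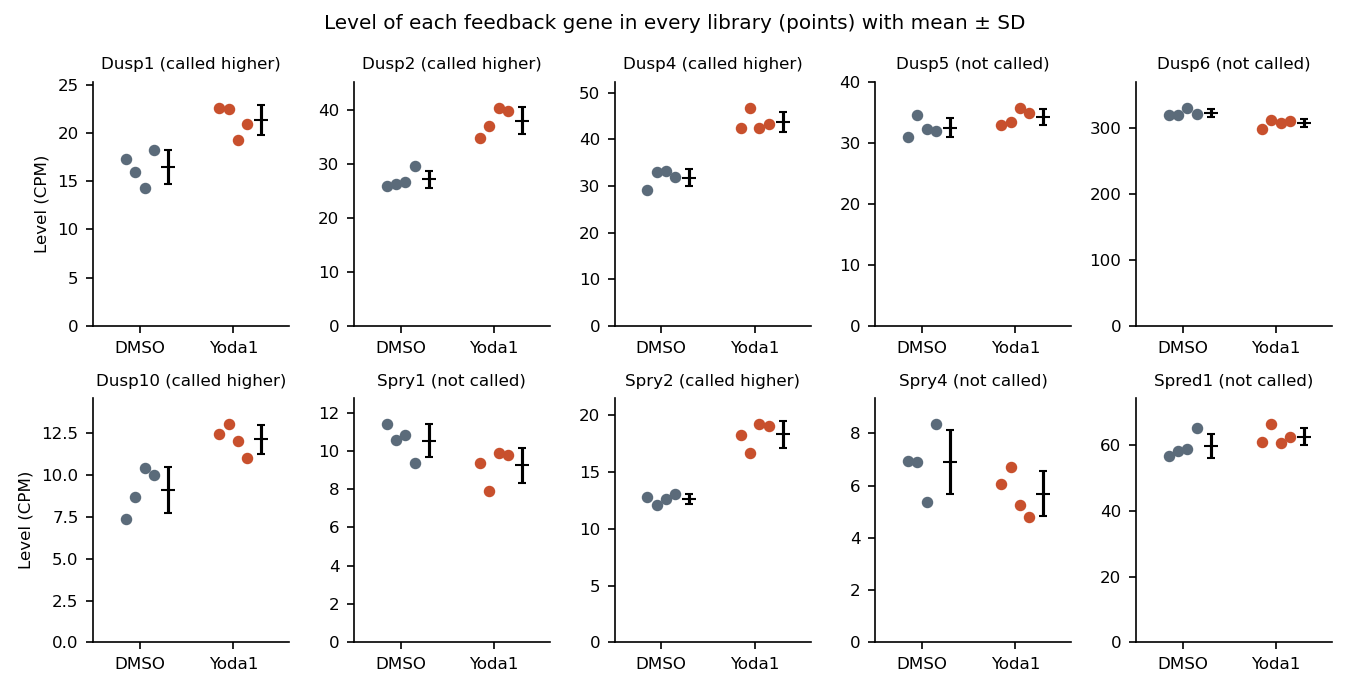
Level in CPM of each of the 10 feedback genes in the 4 DMSO libraries (blue-grey) and the 4 Yoda1 libraries (red), with the mean ± SD in black and every axis starting at 0. For Dusp1, Dusp2, Dusp4, Dusp10 and Spry2 all red points lie above all blue-grey points, for Dusp6 they lie below, and for the other 4 genes the groups overlap.

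The nuclear, signal-inducible phosphatases were Dusp1, Dusp2, Dusp4 and Dusp5, of which 3 rose. Dusp1 (also MKP-1) is an immediate early gene whose product inactivates p38, JNK and ERK. The annotated gene, with all its transcripts, spans chr17:26505590-26562128 on the minus strand (GRCm38, GENCODE M21). Its principal transcript, with 4 exons, covers only chr17:26505590-26508519. Dusp1 was at 17.3, 15.9, 14.3 and 18.3 CPM in DMSO replicates 1 to 4. In Yoda1 replicates 1 to 4 the level was 22.6, 22.5, 19.3 and 20.9 CPM. The lowest Yoda1 library was thus close to the highest DMSO library, but the groups did not overlap. The log2 fold change was 0.38 (SE 0.0797, edgeR adjusted p = 0.00189, by the quasi-likelihood test and Benjamini and Hochberg's method), the smallest among the 5 genes that rose. In the annotation an exon of Dusp1 outside the principal transcript overlaps the opposite-strand gene Ergic1, and no source used here states if reads were counted by strand.

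Dusp2 (PAC-1), a nuclear phosphatase first known from activated lymphocytes, lies on chr2:127336159-127338376 on the plus strand, with 4 exons. Its level was 26.0, 26.2, 26.7 and 29.6 CPM in the DMSO libraries and 34.9, 37.0, 40.4 and 39.8 CPM in the Yoda1 libraries. DMSO replicate 4 was the highest of its group and still lay below every Yoda1 library. Dusp2 rose 1.41-fold (95% interval 1.29 to 1.54), a log2 fold change of 0.49 (SE 0.0619, edgeR adjusted p = 1.31e-06).

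Dusp4 (MKP-2), a nuclear phosphatase of ERK and JNK, lies on chr8:34807297-34819894 on the plus strand, with 4 exons. In replicates 1 to 4 it was at 29.2, 32.9, 33.1 and 31.9 CPM with DMSO and at 42.3, 46.8, 42.4 and 43.2 CPM with Yoda1. The gap between the groups was wider than the spread within either. The increase was 1.38-fold (95% interval 1.27 to 1.49), a log2 fold change of 0.46 (SE 0.0569, edgeR adjusted p = 1.06e-06), which was the smallest adjusted p of the 10 genes.

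Dusp5, a nuclear phosphatase selective for ERK (chr19:53529109-53542431, plus strand, 4 exons), was the exception among the nuclear members. It stood at 31.0, 34.7, 32.4 and 32.1 CPM with DMSO and at 32.9, 33.5, 35.8 and 35.0 CPM with Yoda1, so the groups overlapped. Its log2 fold change was 0.076 (SE 0.0574, edgeR adjusted p = 0.440), and the 95% interval of the fold, 0.972 to 1.14, lies below the folds of the 5 genes that rose. Exons of an unnamed opposite-strand antisense transcript (AC137853.2) overlap its principal transcript.

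Dusp6 (MKP-3), the cytoplasmic phosphatase selective for ERK, was by far the most abundant member, with a level above 95.8% of tested genes (chr10:99263231-99267489, plus strand, 3 exons). It was at 320.0, 320.0, 331.6 and 322.3 CPM in the DMSO libraries and at 299.3, 312.4, 307.9 and 311.7 CPM in the Yoda1 libraries. Every Yoda1 library lay below every DMSO library (exact permutation test, p = 0.0286), by a small margin. The log2 fold change of -0.071 (SE 0.0341) did not pass the adjustment (unadjusted p = 0.0461, edgeR adjusted p = 0.189), and the 95% interval of the fold was 0.907 to 0.999. These values rest on 3708 to 6061 counts per library.

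Dusp10 (MKP-5), which acts on JNK and p38 rather than ERK, lies on chr1:184013302-184075636 on the plus strand, with 4 exons in its principal transcript (chr1:184034381-184075636). It was counted 118 to 214 times per library, at 7.39, 8.65, 10.4 and 9.98 CPM with DMSO and 12.4, 13.0, 12.0 and 11.0 CPM with Yoda1. The DMSO libraries were spread more widely than the Yoda1 libraries, and the groups did not overlap. Dusp10 rose 1.33-fold (95% interval 1.15 to 1.54), a log2 fold change of 0.41 (SE 0.103, edgeR adjusted p = 0.00782).

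Of the 3 Sprouty genes, Spry2 was called higher and Spry1 and Spry4 were not called. Spry2, an inducible inhibitor of receptor signaling to Ras and ERK (chr14:105891947-105896819, minus strand, 2 exons), had the largest increase of all 10 genes. It was at 12.8, 12.0, 12.6 and 13.1 CPM with DMSO, a narrow range, and at 18.2, 16.7, 19.2 and 19.0 CPM with Yoda1. That is a 1.45-fold increase (95% interval 1.30 to 1.62), a log2 fold change of 0.54 (SE 0.0789, edgeR adjusted p = 1.76e-05).

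Spry1, its paralog (chr3:37639947-37644598, plus strand, 2 exons), stood at 11.4, 10.6, 10.8 and 9.39 CPM with DMSO and 9.36, 7.91, 9.90 and 9.77 CPM with Yoda1. The groups overlapped through the low DMSO replicate 4. The log2 fold change was -0.20 (SE 0.0990, edgeR adjusted p = 0.215), with a 95% interval from -0.40 to 0.0062 on that scale, and exons of the opposite-strand transcript Gm42922 overlap the gene.
Spry4, on chromosome 18, was the least abundant member, with 70 to 126 counts per library. It was at 6.95, 6.90, 5.37 and 8.35 CPM with DMSO and at 6.05, 6.70, 5.25 and 4.78 CPM with Yoda1, with overlap. Its log2 fold change was -0.28 (SE 0.134, unadjusted p = 0.0491, edgeR adjusted p = 0.196).

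Spred1, a membrane-bound relative of Sprouty that brings the Ras inhibitor neurofibromin to the membrane, lies on chr2:117121374-117182279 on the plus strand, with 7 exons. It was at 56.6, 58.2, 58.9 and 65.1 CPM in the DMSO libraries and at 60.9, 66.3, 60.5 and 62.5 CPM in the Yoda1 libraries. The groups overlapped, and the log2 fold change was 0.072 (SE 0.0494, edgeR adjusted p = 0.385). The 95% interval of the fold, 0.980 to 1.13, leaves room for an increase smaller than those of the genes that rose.

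**Figure D2:**
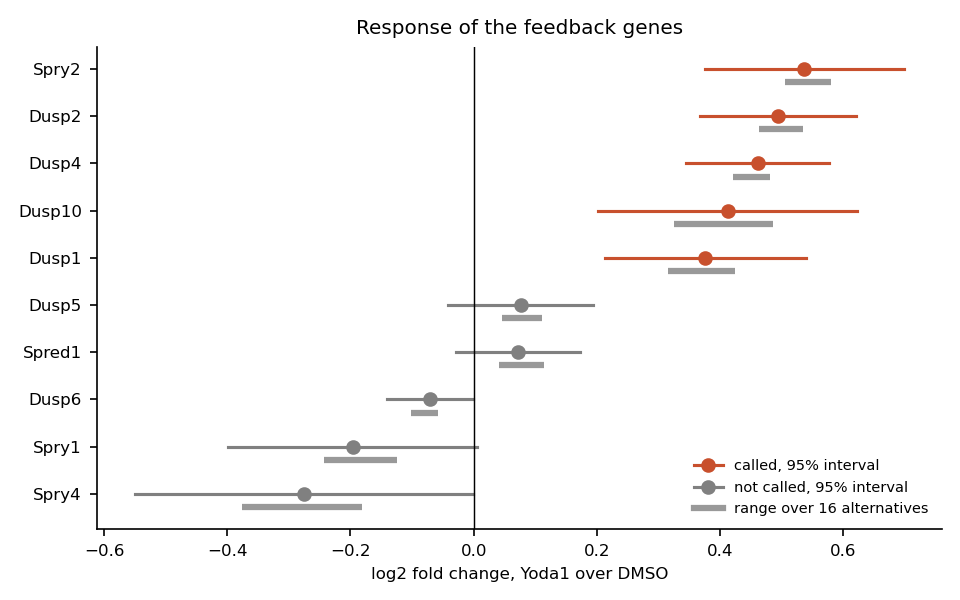
Log2 fold change of each feedback gene (points, red where called) with its 95% interval (thin lines) and, just below, the range over 16 alternative analyses (thick grey bars). The 5 called genes lie between 0.38 and 0.54 with intervals above 0, and the 5 genes not called lie between -0.28 and 0.076.

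The calls of the 10 genes were the same in all 16 alternative analyses, namely other scalings, filters and tests, the replicate number as a block and the removal of each library in turn. The plot of the responses shows these ranges beside the intervals. Dusp10 came nearest to losing its call, with an adjusted p of 0.0381 without DMSO replicate 2, and its log2 fold change ran from 0.32 to 0.49. Dusp6 came nearest to gaining one, with an adjusted p of 0.0503 and a log2 fold change of -0.10 under upper-quartile scaling. Spry2 ran from 0.51 to 0.58, Dusp2 from 0.46 to 0.53, Dusp4 from 0.42 to 0.48 and Dusp1 from 0.32 to 0.42.

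Because transcripts differ in length, levels were compared between genes as CPM per kb of the principal transcript. With DMSO, Dusp6 was at 116 ± 1.98 CPM per kb, followed by Dusp2 at 16.8 ± 1.02, Dusp5 at 13.1 ± 0.626, Dusp4 at 11.6 ± 0.663, Spred1 at 9.92 ± 0.622, Dusp1 at 8.27 ± 0.862 and Spry2 at 6.05 ± 0.208 (SD, n = 4 each). Spry1 at 3.80 ± 0.304 and Dusp10 at 3.26 ± 0.492 came next, and Spry4 was lowest at 1.45 ± 0.256. In this order the DMSO libraries of Dusp4 and Spred1 overlapped, as did those of Spry1 and Dusp10, and the other neighbors did not overlap. With Yoda1, Dusp2 reached 23.5 ± 1.59 CPM per kb and Dusp4 15.9 ± 0.763, so that Dusp4 stood above Dusp5 at 13.9 ± 0.540. Dusp10 at 4.34 ± 0.305 stood above Spry1 at 3.33 ± 0.329, and Dusp1 at 10.7 ± 0.787 was just above Spred1 at 10.4 ± 0.440, a difference smaller than the SD of Dusp1. Thus the order of neighbors changed in these 3 places, while Dusp6 was highest and Spry4 lowest in both groups.

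**Figure D3:**
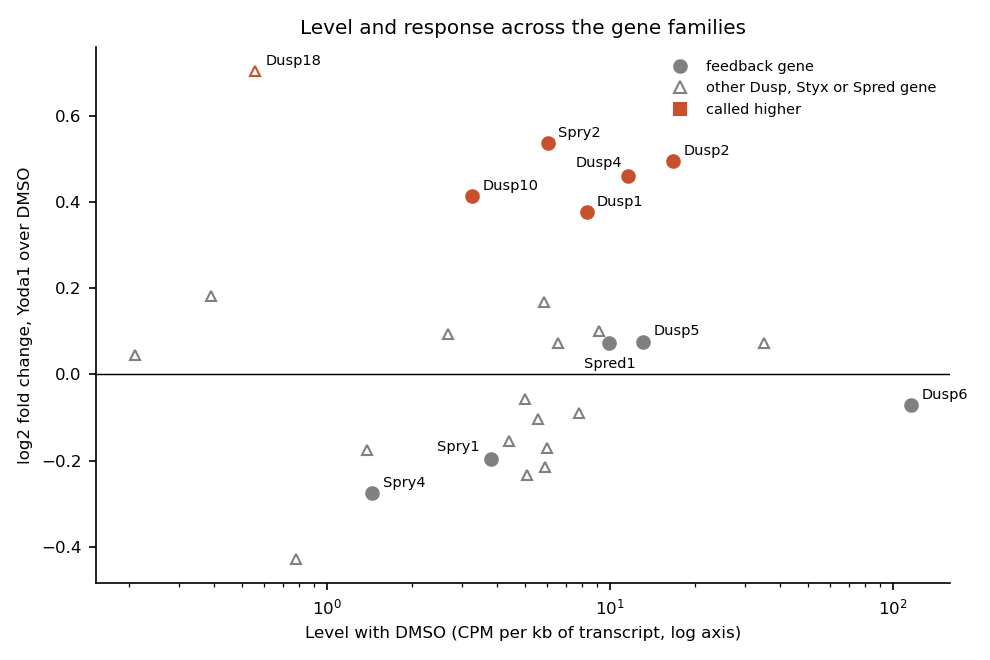
Level with DMSO (CPM per kb, log axis) against log2 fold change for the 10 feedback genes (circles) and the 17 other Dusp, Styx and Spred genes tested (triangles), with genes called higher in red. The 5 called feedback genes lie between 3.26 and 16.8 CPM per kb, and Dusp6, at 116, lies just below 0.

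The balance between members was also taken within each library, where scaling between libraries cancels. The ratio of Spry2 to Spry1 per kb was 1.49, 1.51, 1.55 and 1.85 in the DMSO libraries and 2.59, 2.80, 2.58 and 2.59 in the Yoda1 libraries. The Dusp4 to Dusp6 ratio was 0.0930 to 0.105 with DMSO and 0.141 to 0.153 with Yoda1. Neither range overlapped between the groups. For Dusp4 to Dusp5 the ratio was 0.850 to 0.924 with DMSO and 1.07 to 1.26 with Yoda1, crossing 1 between the groups. Dusp6 made up 59.7% to 61.7% of the summed CPM per kb of the 10 genes with DMSO and 54.2% to 54.7% with Yoda1. These ratios restate the levels given above and were not tested.

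**Figure D4:**
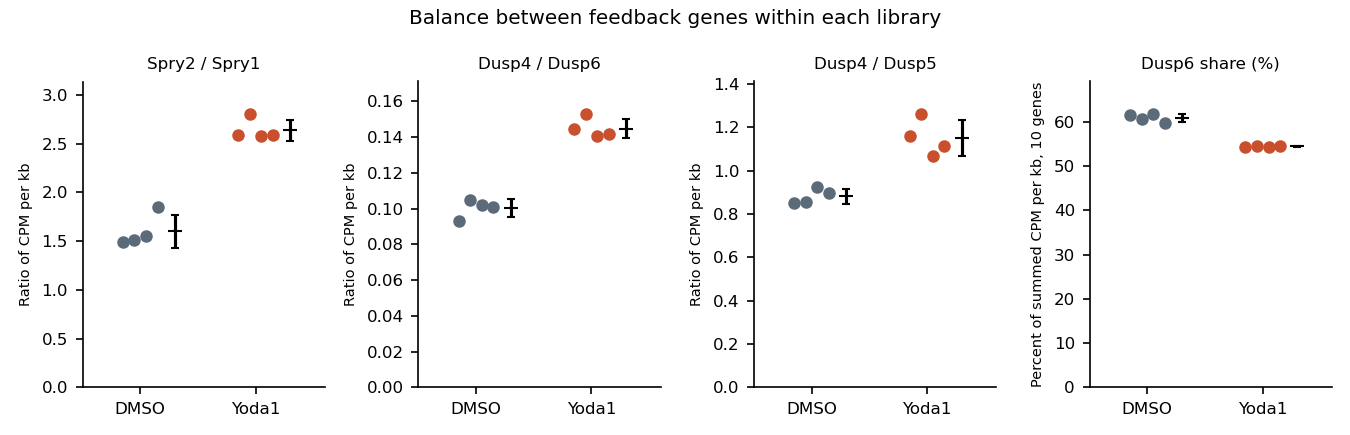
Ratios of CPM per kb between pairs of feedback genes, and the share of Dusp6 in the summed CPM per kb of the 10 genes, in each DMSO library (blue-grey) and each Yoda1 library (red), with mean ± SD in black and axes starting at 0. All Yoda1 libraries lie above all DMSO libraries for the 3 ratios and below them for the Dusp6 share.

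The remaining members of these families, 22 further genes (the other dual-specificity phosphatases, Styx, Spry3, Spred2 and Spred3), gave a different count. Dusp13, Dusp21, Dusp26, Dusp27 and Spry3 had at most 3 counts in any library and were not tested. Of the 17 tested, 1 was called higher and 0 lower by edgeR (5.88%, beside 10.9% of all genes), and DESeq2 and limma-voom gave the same 1 and 0. At an unadjusted p under 0.05 by edgeR, 2 were higher and 2 lower, beside 1563 and 1530 of all 12239 genes tested. The median log2 fold change of the 17 was -0.056. The gene called was Dusp18, a small phosphatase without the MAPK-binding domain, which was at 2.82, 2.68, 2.49 and 2.37 CPM with DMSO and 3.87, 4.93, 4.72 and 3.50 CPM with Yoda1. Its log2 fold change of 0.70 (SE 0.164, edgeR adjusted p = 0.00477) rests on 32 to 81 counts per library. The 4 MAPK phosphatases proper in this group are named after their values were seen. The cytoplasmic ERK phosphatases Dusp7 and Dusp9 had values of -0.21 and -0.43 on the log2 scale (edgeR adjusted p = 0.0804 and 0.288), Dusp8, a JNK and p38 phosphatase, was at 0.18 (edgeR adjusted p = 0.659), and Dusp16, which acts on the same kinases, was at 0.073 on that scale (edgeR adjusted p = 0.459). Spred2 (-0.090) and Spred3 (-0.18) were not called (edgeR adjusted p = 0.516 and 0.456).

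In the kinase cascade that these genes restrain, Sos2 was called higher and Rras2 lower. Of 22 tested genes from Grb2, Sos and Ras to ERK, these 2 make up 9.09%, close to the 10.9% of all genes tested. At an unadjusted p under 0.05 by edgeR, 4 of the 22 were higher and 5 lower, beside 1563 and 1530 of all 12239 genes tested. The median log2 fold change of the 22 was -0.018. The ERK kinase Mapk3 (-0.020) and the MEK kinases Map2k1 (0.089) and Map2k2 (0.047) had adjusted p-values from 0.175 to 0.846 by edgeR. Sos2, a Ras activator, rose from 58.7 ± 2.94 to 66.2 ± 2.65 CPM (SD, n = 4 each; log2 fold change 0.18, edgeR adjusted p = 0.0141), a call lost without Yoda1 replicate 2 (adjusted p = 0.0633). Rras2, a Ras-related GTPase, fell from 28.3 ± 2.14 to 22.5 ± 1.26 CPM (log2 fold change -0.34, edgeR adjusted p = 0.00115).

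In the JNK, p38 and ERK5 cascades 3 of 21 tested genes were called higher and 1 lower (19.0%, beside 10.9% of all genes tested). At an unadjusted p under 0.05 by edgeR, 8 of the 21 were higher and 6 lower, beside 1563 and 1530 of all 12239 genes tested. The genes called higher were Mapkapk3 and Mapkapk2, kinases activated by p38, and Map2k3, a kinase upstream of p38. Mapkapk3 was at 503 ± 17.8 and 588 ± 13.2 CPM (SD, n = 4 each; log2 fold change 0.22, edgeR adjusted p = 4.70e-05), Map2k3 at 192 ± 5.66 and 219 ± 4.04 CPM (0.19, adjusted p = 0.000519), and Mapkapk2 at 336 ± 5.10 and 369 ± 6.57 CPM (0.14, adjusted p = 0.00705). Map3k5 (ASK1), an upstream kinase of both branches, fell from 113 ± 6.49 to 99.8 ± 2.96 CPM (-0.18, edgeR adjusted p = 0.00701). Each of these changes was smaller on the log2 scale than those of the 5 feedback genes that rose.

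Among negative regulators of Ras and ERK of other kinds, Rasa3, Dok2 and Ptpn7 fell. Of 18 tested, 0 were called higher and 3 lower (16.7%, beside 10.9% of all genes tested) by edgeR. DESeq2 and limma-voom also gave 0 higher, with 2 and 3 lower. At an unadjusted p under 0.05 by edgeR, 4 were higher and 3 lower, beside 1563 and 1530 of all 12239 genes tested. The median log2 fold change of the 18 was -0.030. Rasa3, a GTPase-activating protein that switches off Ras and Rap1, was at 28.9, 30.6, 32.2 and 31.3 CPM with DMSO and 23.2, 24.0, 23.6 and 25.3 CPM with Yoda1 (log2 fold change -0.35, SE 0.0619, edgeR adjusted p = 0.000222). Dok2, an adaptor that dampens Ras signaling in lymphoid and myeloid cells, was at 58.8 ± 2.33 and 46.7 ± 1.36 CPM (SD, n = 4 each; -0.33, edgeR adjusted p = 1.53e-05). Ptpn7, a tyrosine phosphatase of ERK and p38, was lower by a log2 fold change of -0.11 at an adjusted p near the threshold (edgeR adjusted p = 0.0427), and this call was lost in 8 of the 16 alternatives, 6 of which left out 1 library (adjusted p up to 0.184).

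Transcripts that ERK signaling is known to induce moved in both directions. Of 21 tested genes of this list, 7 were called higher and 2 lower (42.9%), beside 10.9% of all genes tested, with a median log2 fold change of 0.094. The list was chosen with earlier results of these data known, so these shares are a description. It also holds the transcription factors Srf, Elk1, Elk3 and Elk4, none of them called, and so is not made up of induced transcripts alone. The 12 genes not called further include Fos, Fosl1, Junb, Ier2, Myc, Mcl1 and Epha2. Their log2 fold changes were 0.25, 0.68, 0.024, 0.047, -0.029, 0.054 and -0.40 in that order, with edgeR adjusted p from 0.0574 to 0.764. The largest of the called increases were those of Egr3, Egr2 and Fosb, which encode immediate early transcription factors. Egr3 was at 12.4 ± 2.20 CPM with DMSO and 32.2 ± 1.21 CPM with Yoda1 (SD, n = 4 each; log2 fold change 1.39, edgeR adjusted p = 6.31e-13), and Egr2 and Fosb had log2 fold changes of 1.38 and 1.34. Ier3 (0.60) and Egr1 (0.43) changed about as much as the feedback genes (edgeR adjusted p = 2.40e-05 and 3.06e-06). Ccnd1, which encodes cyclin D1, fell from 5.09 ± 0.380 to 2.88 ± 0.339 CPM (log2 fold change -0.81, edgeR adjusted p = 0.000362), from 32 to 94 counts per library.
The other gene called lower, named after its values were seen, was Etv5, an ETS transcription factor. Etv5 was at 72.4 ± 3.15 CPM with DMSO and 58.5 ± 2.13 CPM with Yoda1 (SD over 4 libraries per group), and its log2 fold change was -0.31 (SE 0.0463, edgeR adjusted p = 2.51e-05). Its relative Etv4, at -0.26 on the log2 scale, was not called (edgeR adjusted p = 0.272).

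**Figure D5:**
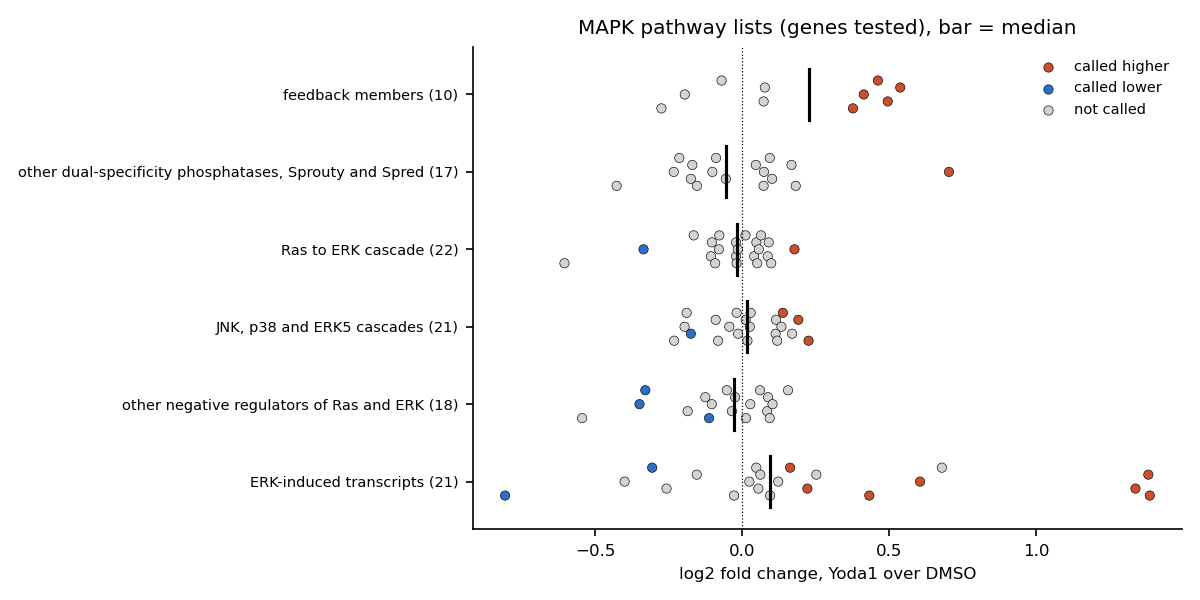
Log2 fold change of every tested gene in 6 lists of the MAPK pathway, with the number of genes tested in parentheses, genes called higher in red, genes called lower in blue and the list median as a black bar. The medians run from -0.056 to 0.23, and the feedback genes split into a called group from 0.38 to 0.54 and an uncalled group from -0.28 to 0.076.

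For each gene that rose, the 3 genes whose log2 CPM followed it most closely over the 8 libraries were listed among 9915 others with at least 5 CPM on average. The likeness is Pearson's r and is given as a description. It includes the difference between the groups, and how much of r comes from that difference was not tested. Spry2 was followed most closely by Csf2, which encodes GM-CSF, by Rgs16, a regulator of G protein signaling, and by Plk3 (r from 0.986 to 0.992), all of them called higher. Dusp2 was nearest to Ubash3b, Ctsc and Nbr1 (r from 0.987 to 0.993), and Dusp4 to Mnda, Serinc5 and Mex3c (r from 0.987 to 0.991), also all called higher. For Dusp10 (Svil, Susd6 and Cdc40, r from 0.983 to 0.993) and Dusp1 (Zfp280b, Zfp664 and Cul3, r from 0.969 to 0.978), 1 of the 3 was called higher in each case, Susd6 and Zfp664.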

How the data were processed

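The submitters deposited, for each library, raw read counts per gene symbol without normalization. The submitters' processing notes name TopHat and the build mm10, and the study's methods name a poly(A) selection kit, a directional library kit, FASTX Trimmer, BBMap and Cufflinks. Versions, gene annotation and strandedness of the counting were not given in the sources used here. The deposited totals (12438009 to 19534653 counts) set the precision, with 70 counts in the lowest value of a member.

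Groups came from the sample titles. Genes were filtered with filterByExpr (minimum count 10, minimum total count 15), scaled with TMM and compared (4 Yoda1 against 4 DMSO libraries) by the robust quasi-likelihood test of edgeR 4.0.16 (R 4.3.3), and p-values were adjusted by Benjamini and Hochberg's method over the 12239 genes tested, with calls at 0.05. The SE is the absolute log2 fold change divided by the root of F, and 95% intervals use the total degrees of freedom. CPM are of the TMM-scaled library. Log2 CPM had a prior count of 2. Comparisons of single levels used two-sided exact permutation tests. Within each group, pairs of libraries differed by a chi-square per gene of 2.01 to 6.62, so all were kept as separate samples. The scripts were tested on simulated data.

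The members, lists and motifs were chosen with earlier results of these data known. By rule, the genes named are the 10 members, up to 6 called genes per list by size of change, Mapk3, Map2k1, Map2k2 and Piezo1, and the 3 genes most like each called member. Dusp7, Dusp8, Dusp9, Dusp16, Spred2, Spred3, Etv4, Etv5, Srf, Elk1, Elk3 and Elk4 were named after their values were seen, and cell type markers only for the check of the tissue. Some further genes of the rule are not reported here. Positions and transcript lengths came from GENCODE M21 (GRCm38, the assembly behind mm10), and promoter sequences from RefSeq. Alternatives were RLE, upper-quartile and no scaling factors, no filter, at least 10 counts in every library, DESeq2 1.42.0, limma-voom (limma 3.58.1), a block for the replicate number, and leaving out each library in turn.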

Additional observations from a re-analysis of the deposited data

How the results depend on the processing

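The feedback genes kept 5 calls higher and 0 lower in all 16 alternatives, and no feedback gene changed its direction or its side of the threshold. The number of all genes called lower, 592, became 958 with upper-quartile factors and 372 with DESeq2, and ran from 367 (without DMSO replicate 2) to 677 when each library was left out, with 374 without Yoda1 replicate 4. The other dual-specificity phosphatases, Sprouty and Spred genes, with 1 call, had 3 with upper-quartile factors, 2 with library size only and 1 to 2 with each library left out (2 without DMSO replicate 1, Yoda1 replicate 2 or Yoda1 replicate 3). The Ras to ERK cascade, with 2 calls, had 4 with upper-quartile factors and 1 to 3 with each library left out (1 without Yoda1 replicate 2). Mapk3, not called, had a log2 fold change of -0.041 to 0.0020 with each library left out, in place of -0.020, and was above 0 without DMSO replicate 4. The cause of these shifts was not tested.

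With the replicate number as a block, 548 genes were called higher and 418 lower, and the feedback genes again gave 5 and 0. The sample titles do not say if the numbers pair the samples. Deviations of same-numbered libraries from their group means correlated at only -0.028 to 0.071, and 1 of 4 DMSO libraries correlated best with its own number. Such weak correlations show no clear pairing but cannot exclude one with small shared effects. Under the block Ptpn7 lost its call (adjusted p = 0.109). At 70 to 126 counts per library the interval of Spry4 was the widest of the 10 genes, and its change was not called at this depth.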
